A study of Mus musculus with 8 samples.

Results

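Acetylation of lysine 27 on histone H3 (H3K27ac) was compared with input chromatin in sorted brain microglia of wild-type (WT) mice. The members are the 2 WT H3K27ac libraries and the 2 WT input libraries, which are 4 of the 8 libraries of the series, and all 129304 regions of the deposited table. The mice were C57BL/6, of WT genotype and 2 years old. Nuclei from frozen hemibrains were fixed with formaldehyde and sorted as DAPI+, PU.1+, OLIG2- and NEUN-, so the gate kept nuclei with the myeloid factor PU.1 and removed nuclei of neurons and of the oligodendrocyte lineage. Nuclei of 2 mice were pooled for a replicate and immunoprecipitated with an Active Motif antibody, and the input of the same number is a part of the same lysate that was set aside before the antibody was added. The regions are 800 bp wide and come from a merged list of accessible sites found by ATAC-seq, so chromatin outside that list was not analysed here. All values are scaled tags, that is tags in the region per 10000000 tags of the library, and because every region has the same width they can be compared between genes as a level per length.

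H3K27ac is placed on nucleosomes that flank active promoters and enhancers, mainly by the acetyltransferases p300 and CBP, and it is removed by histone deacetylases. Microglia are the resident macrophages of the brain. Their enhancers are known to be set up by the myeloid factor PU.1 with IRF8, MEF2, C/EBP and AP-1 factors, and by SALL1 and SMAD factors that act downstream of TGF-beta. An input library shows how often a stretch of chromatin is recovered without the antibody.

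A set of 5 promoters that recur in the results are printed from RefSeq on GRCm38.p6, from 250 bases before the start site to 50 after it, on the strand of the gene. They show the letters at 4 of the most acetylated genes in these nuclei and, for contrast, at Irf8. Capitals mark matches, on either strand, to the PU.1 letters GAGGAAGT, the MEF2 letters (CTA and TAG with 4 bases between them), the C/EBP letters TTGCNNAA or the AP-1 letters TGANTCA, and 4 of the 5 hold a match. Cx3cr1 encodes the fractalkine receptor of microglia (chr9:120068247-120068546, minus strand, MEF2 match 67 bases upstream of the start). C1qc encodes a chain of complement C1q (chr4:136892865-136893164, minus strand, PU.1 match on the opposite strand 195 bases upstream). Inpp5d encodes the phosphatase SHIP1 (chr1:87620062-87620361, plus strand, PU.1 match 20 bases upstream). P2ry12 encodes the ADP receptor that guides microglial processes (chr3:59262936-59263235, minus strand, C/EBP match on the opposite strand 204 bases upstream). Irf8 encodes a myeloid lineage factor (chr8:120736108-120736407, plus strand) and is shown as a promoter of high GC content, 70.0% against 42.3% at P2ry12.
Cx3cr1: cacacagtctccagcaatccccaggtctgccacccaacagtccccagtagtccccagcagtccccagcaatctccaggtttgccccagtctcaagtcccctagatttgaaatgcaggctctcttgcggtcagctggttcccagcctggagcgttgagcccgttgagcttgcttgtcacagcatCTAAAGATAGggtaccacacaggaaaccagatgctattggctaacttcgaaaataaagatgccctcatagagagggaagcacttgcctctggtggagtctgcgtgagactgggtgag
C1qc: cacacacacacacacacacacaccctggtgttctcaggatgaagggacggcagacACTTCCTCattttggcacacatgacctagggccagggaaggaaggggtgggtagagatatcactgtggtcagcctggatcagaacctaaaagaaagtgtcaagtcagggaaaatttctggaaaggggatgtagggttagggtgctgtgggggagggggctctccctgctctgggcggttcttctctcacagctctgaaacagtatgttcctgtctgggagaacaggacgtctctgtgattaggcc
Inpp5d: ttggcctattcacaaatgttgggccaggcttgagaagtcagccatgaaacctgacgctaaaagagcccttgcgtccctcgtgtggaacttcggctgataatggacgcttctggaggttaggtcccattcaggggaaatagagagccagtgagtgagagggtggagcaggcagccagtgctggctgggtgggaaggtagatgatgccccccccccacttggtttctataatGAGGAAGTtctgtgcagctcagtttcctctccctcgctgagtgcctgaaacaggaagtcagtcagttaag
P2ry12: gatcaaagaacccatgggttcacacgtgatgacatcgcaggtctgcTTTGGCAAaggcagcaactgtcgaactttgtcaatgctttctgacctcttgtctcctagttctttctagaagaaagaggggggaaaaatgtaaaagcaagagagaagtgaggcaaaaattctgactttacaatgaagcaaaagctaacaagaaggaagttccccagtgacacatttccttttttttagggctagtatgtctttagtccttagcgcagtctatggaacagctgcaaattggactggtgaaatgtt
Irf8: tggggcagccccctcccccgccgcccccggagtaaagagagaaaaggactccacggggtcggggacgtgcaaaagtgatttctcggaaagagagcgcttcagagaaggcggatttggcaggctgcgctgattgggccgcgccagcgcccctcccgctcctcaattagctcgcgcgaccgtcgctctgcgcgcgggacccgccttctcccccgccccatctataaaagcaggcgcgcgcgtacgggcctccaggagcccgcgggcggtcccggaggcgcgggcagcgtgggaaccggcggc

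The H3K27ac libraries held 15491642.5 and 18433104 tags and the inputs 4078179 and 9351991, so the inputs set the precision: 3 tags, taken as the floor of detection, are 1.94 and 1.63 scaled tags in H3K27ac and 7.36 and 3.21 in the inputs. The listed regions took up 49.4% and 63.3% of the H3K27ac tags (mean 56.3% ± 9.88, SD, n = 2) and 4.48% ± 0.433 of the input tags (SD, n = 2), where overlapping regions each count the tags they share. The difference of 51.9 percentage points had p = 0.333 in an exact permutation test, two-sided, the smallest p that 2 libraries against 2 allow. The other p-values, from limma, rest on the spread between these pools and on a variance shared across regions. In 82.7% of the regions that limma called higher, neither input had a tag, so the inputs added no spread there. Input replicate 1 had no tag in 91.3% of regions and input replicate 2 in 60.3%, against 14.0% and 12.4% for H3K27ac. Across regions, which are not independent, the log2 values of the H3K27ac libraries had a Pearson's r of 0.90 and those of the inputs 0.01. The 8 regions at start sites of Y-linked genes summed to 5.81 scaled tags in H3K27ac replicate 1 and 269.6 in replicate 2, and the 3 regions of Xist to 81.7 and 0, so the pools differ on sex-linked genes and the labels give no sex.

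H3K27ac exceeded input in a large share of the accessible regions. At a limma adjusted p under 0.05, 56389 of 129304 regions (43.6%) were higher in H3K27ac than in input and are called acetylated in what follows, and 226 (0.175%) were lower. Both H3K27ac libraries were above both inputs in 84367 regions (65.2%) and below both in 1232. Neither input had a tag in 55.2% of regions, where H3K27ac cannot be lower, so the count of lower regions is no measure of how rare they are. With 1 scaled tag added to both, the median over regions of H3K27ac over its own input was 8.75 in pool 1 and 5.44 in pool 2 (mean 7.09 ± 2.34, SD, n = 2), and with 5 added the mean was 2.44. Most regions had no input tag, so the added value sets this ratio and it is no measured enrichment. The call also went with the input: none of 9946 regions with an input over 20 scaled tags was called higher (77 without the variance trend), against 47.2% of the others. The trended spread that limma fits failed at the highest averages. In the 215 regions with a log2 average over all 4 libraries above 6, its standard error reached 3957 on the log2 scale, where the spread between the libraries themselves gave at most 4.19. None of these 215 was called in either direction, whereas without the trend 51 were called higher and 6 lower, so a missing call there says nothing of the mark. The trend also cost calls below that average. From 5.5 to 6, 5 of 462 regions were called higher with it and 75 without it. From 5 to 5.5 these counts were 273 and 341 of 1369. In simulated libraries whose inputs had tags as clumped as here, limma also called some regions of equal mean, which limits what a call alone shows. With the pools entered as a replicate block, 33570 regions were called higher and 109 lower, and leaving out an input gave 42910 and 48794 higher and 2816 and 1720 lower. Leaving out an H3K27ac library leaves the spread to be set by the 2 inputs alone: 99.8% of the regions called higher then had no tag in either input. These calls therefore do not measure how stable the H3K27ac signal is. Below they enter only the overlap of the largest domains and the ranges with 1 library left out.

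The level of the mark was concentrated in few regions. The median region held 9.64 scaled tags, an acetylated region 34.2 and a region without a call 3.40. The top 1%, 1293 regions with a mean of 413 or more, took 12.1% of the H3K27ac tags in the listed regions, the top 10% took 57.2%, and the upper 50% took 96.5%. At the other end, both H3K27ac libraries were under the floor of 3 tags in 16745 regions (12.95%). The top 1% was much the same in both libraries, which shared 1029 of their own 1293 strongest regions (79.6%). In all 1293 regions of the top 1% both H3K27ac values were above both inputs, yet 264 were not called (1100 were called without the variance trend, against 1029 with it). The regions without a call had a median of 488 scaled tags and those with a call 490.1, while the median of the higher input was 17.1 in the former and 0 in the latter. Replicate 2 was higher than replicate 1 in 98.1% of the top 1%, by a median ratio of 1.35.

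Promoters were more often acetylated than other accessible regions, whereas most of the strongest regions lay away from start sites. Of 28205 regions within 1000 bp of a start site, 57.2% were acetylated and the median level was 23.8 scaled tags. Of 100939 regions farther away, 39.9% were acetylated and the median was 7.43. The share fell with distance, from 41.1% between 1000 and 10000 bp to 36.8% beyond 100 kb. Even so, the distal regions supplied 1054 of the 1293 strongest regions (81.5%) and 73.5% of the H3K27ac tags in the list, close to their 78.1% of all regions. Regions are not replicates, so these shares are descriptive and carry no test.

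By annotated feature, regions at promoters had the largest share of calls, 58.3%, followed by 5′ UTRs with 56.4%. Regions annotated to CpG islands had 55.9%. The first intron stood above later introns, with 48.0% against 40.4%, and kept this order beyond 1000 bp from a start site, with 45.5% against 40.2%. Exons had the lowest median level of these classes, 4.70 scaled tags, and only 0.237% of them reached the top 1%. Intergenic regions were called less often, 37.3%, but were 39.5% of the top 1% and 32.1% of all regions. Regions annotated to repeats were called in 35.3% (SINE), 38.5% (LINE) and 37.8% (LTR) of cases. On the X chromosome 43.7% of 3048 regions were called, as on the autosomes, but only 3 reached the top 1%.

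Around start sites the mark was highest on either side rather than on the start itself. The median level was 31.3 scaled tags in regions centred 200 to 400 bp upstream, 26.2 in the 200 bp just upstream, 27.3 just downstream and 29.3 at 200 to 400 bp downstream. It fell to 5.72 near 1900 bp upstream and to 8.88 near 1900 bp downstream. Both libraries had this shape with its dip, and the mean input lay between 2.03 and 5.97 at all these distances.

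**Figure D1:**
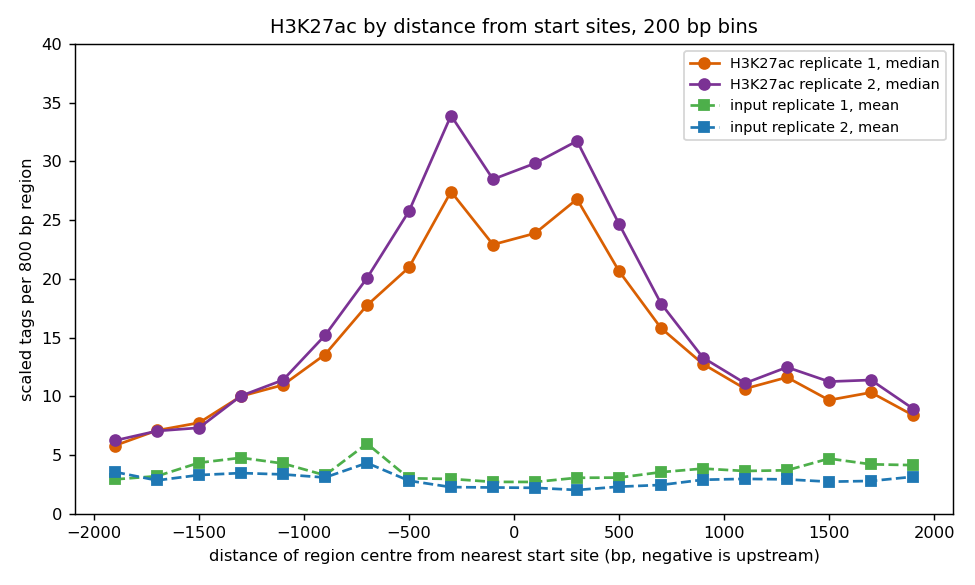
Level of H3K27ac (median over regions, 1 line per library) and of input (mean over regions, since the input medians are 0) in 200 bp bins of the distance of the region's centre from the nearest start site, in scaled tags per 800 bp. Both H3K27ac lines peak near 300 bp on each side, with medians of 27.4 and 33.9 upstream, and the inputs stay between 2.03 and 5.97.

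The 25 strongest promoter regions with a call, 1 per gene, included all 3 genes of complement C1q and the receptor genes Cx3cr1, Csf1r and P2ry12, beside genes of many other kinds. The highest called promoter region was at C1qb, in intron 1 of 2 of the B chain of complement C1q, 354 bp from its start (chr4:136885423-136886223), with 797 and 879.7 scaled tags in the H3K27ac libraries and 0 and 6.42 in the inputs. The neighbouring C1qc (chr4:136892235-136893035) held 717 and 912, and C1qa (chr4:136897492-136898292) 644 and 748, both with no input tag. All 3 genes of the C1q cluster were therefore among the 6 highest called promoters, and the H3K27ac values lay far from the inputs in each. A region of Selplg within 1000 bp of a start site was higher still, with 690 and 1069 (inputs 0 and 6.95). It had no call and so is not among the 25. At Cx3cr1 the region 602 bp upstream of the start (chr9:120068498-120069298) held 665 and 983 scaled tags with both inputs at 0, which is at least 90.4-fold over the floor of its input in pool 1 and at least 306-fold in pool 2 (limma adjusted p = 0.00229). Csf1r, the receptor for the growth factors that keep microglia alive, held 535 and 866 in a region over its 5′ UTR in exon 2 of 22, with inputs of 0 and 5.88 (adjusted p = 0.0349).

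Others were Cmtm7, Phyhd1, 0610039K10Rik, Akna, Bach2os, Mir7687, Btbd19 and Capn3. Among them too was Inpp5d, which restrains phosphoinositide signalling and held 597 and 710.4 scaled tags in intron 1 of 26. Fli1, an ETS factor of blood cells, held 536 and 770.35, and Sirpa, the receptor of the "don't eat me" signal CD47, held 495 and 775. Laptm5, a lysosomal membrane protein of blood cells, held 521 and 697. Actb, the cytoskeletal beta-actin, held 567 and 714. Vsir, an immune checkpoint receptor, P2ry12 and Lat2, an adaptor of immune receptor signalling, closed the list together with Arhgap27os3 at 490.3 and 684. Across the 25 the mean ran from 587 to 838 scaled tags, replicate 2 was the higher library in 24, and no input exceeded 7.49. Both inputs were at 0 in 14 of them, and of the other 11, 10 lost the call under the replicate block. In all, 14 of the 25 lay in introns and 19 were centred downstream of the start.

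The 5 regions highest in H3K27ac of the whole table lie near Pisd-ps3, a pseudogene, on the unplaced sequence Un_JH584304. Their means were 1294 to 2248 scaled tags, beside inputs of 33.7 to 168. They too are among the 215 regions where the trended spread failed, and all 5 were called higher without the trend. Called regions away from start sites reached higher levels than called promoters. On the assembled chromosomes the called region with the most H3K27ac lay between Xirp1 and Cx3cr1 (chr9:120037899-120038699), 30.0 kb downstream of the Cx3cr1 start and 14.7 kb from that of Xirp1, a gene of striated muscle. It held 979.6 and 1422 scaled tags with both inputs at 0, at least 133-fold and at least 443-fold over the input floors of pools 1 and 2 (limma adjusted p = 0.00352). The deposited table assigns it to Xirp1 by distance alone, and which gene it acts on was not tested.

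The next named region, 15.2 kb upstream of Alg8, a glycosylation enzyme (chr7:97355995-97356795), held 907 and 1068. Spi1, which encodes PU.1 itself, had a region 13.1 kb upstream of its start (chr2:91083167-91083967) with 743 and 1198 scaled tags, against 319 and 556 at its promoter. Mef2a, a MEF2 factor, had a region 89.7 kb upstream (chr7:67462188-67462988) with 777 and 1027, against 441 and 577 at its promoter. In both cases the distal region was higher than the promoter in each library. The region assigned to Mef2a lies 85.7 kb from the nearer end of that gene but 50.4 kb from Lrrc28. Which gene it acts on was not tested. Ncf1, the p47 subunit of the phagocyte NADPH oxidase, had 789 and 1069 in a region 2.64 kb upstream (chr5:134231863-134232663). Inpp5d had 801 and 901 in its intron 2 of 26 (chr1:87658333-87659133), 38.4 kb from the start.

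In some distal regions the gene of the nearest start site was not the gene around the region or the only gene nearby. The region assigned to Gngt2 (737 and 944) lies inside Abi3, a regulator of actin in microglia, and the region assigned to Iscu (682 and 926) lies 17.0 kb from Tmem119, a membrane protein that marks microglia. The region assigned to Psap, prosaposin (656 and 910.05), lies inside Cdh23, and the region of Mir7086 (656 and 857) is in the 60.2 kb domain of Il10ra, the interleukin-10 receptor. Lgmn, the lysosomal protease legumain (720.1 and 917), Cst3, the protease inhibitor cystatin C (596 and 935), Ccr1, a chemokine receptor (650.4 and 967), and Zeb2, a myeloid transcription factor (602 and 897), were also among the 25, each as the gene of the nearest start site. Of these 25 regions, 15 were intergenic and 10 intronic, 11 lay within 10000 bp of a start site, and 4 lay beyond 50 kb. Replicate 2 was higher in all 25, and both inputs were at 0 in 16, and of the other 9, 8 lost the call under the replicate block.

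**Figure D2:**
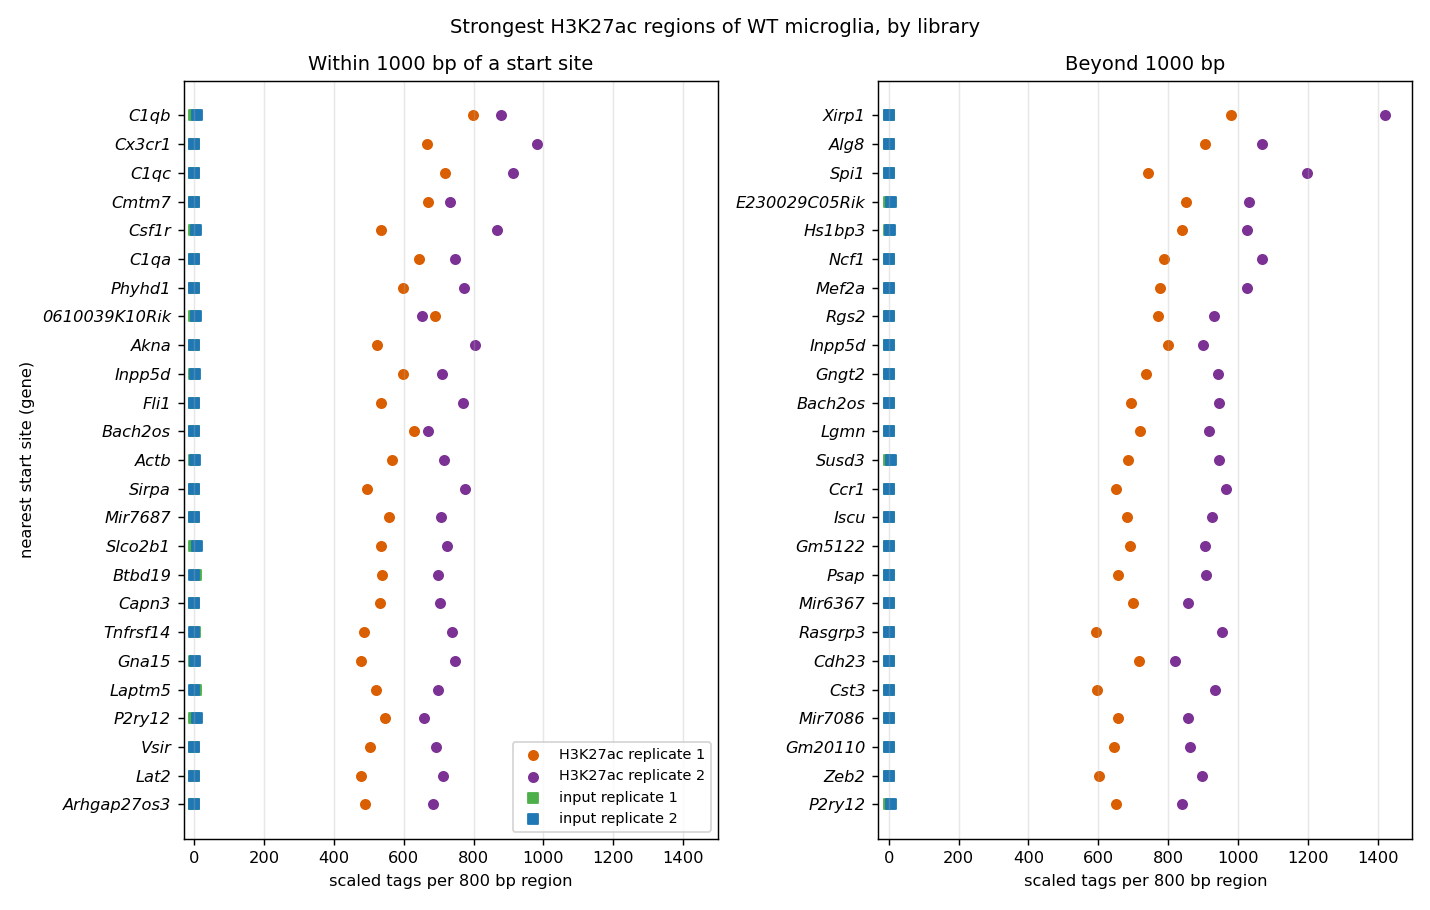
Scaled tags per 800 bp region in each of the 4 libraries for the 25 strongest acetylated regions within 1000 bp of a start site (left) and beyond it (right), labelled by the gene of the nearest start site. All input values are 7.49 or lower, all H3K27ac values are 476 or higher, and replicate 2 exceeds replicate 1 except at 0610039K10Rik.

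Regions around the lineage genes were acetylated over long distances, and the profile differed from gene to gene. Within 50 kb of the Cx3cr1 start, 32 of 44 regions were called and 11 were in the top 1%, with a median of 242 scaled tags. The strongest lay between -1.62 and 3.57 kb of the start, where negative distances are upstream, and again between 24.98 and 33.8 kb, with 1 between them at 12.3 kb. Around Spi1, 22 of 31 regions were called and 8 were in the top 1%, 6 of them between -14.35 and -10.2 kb and 2 at the start site. At Sall1, the factor that sets the microglial state, 19 of 27 regions within 50 kb were called. The 6 of these in the top 1% lay between -0.96 and 4.25 kb of the start, with the highest 2.43 kb downstream (420.2 and 684). Of all 57 regions assigned to Sall1, 8 were in the top 1%. The highest of them lay outside this window, with a mean of 599 against 552 at 2.43 kb. Inpp5d had 34 of 50 called and 12 in the top 1%, at the start, at 18.7 to 20.2 kb and at 29.7 to 39.2 kb downstream. Irf8 differed in that its own promoter held 178 and 170.35, while the highest region within 50 kb lay 39.1 kb upstream with 544 and 721. That region was not called, beside an input of 19.6, and its nearest start site is that of Cox4i1, a subunit of cytochrome c oxidase. The highest called region, 39.6 kb upstream and also nearest to Cox4i1, held 479 and 745 with both inputs at 0.

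**Figure D3:**
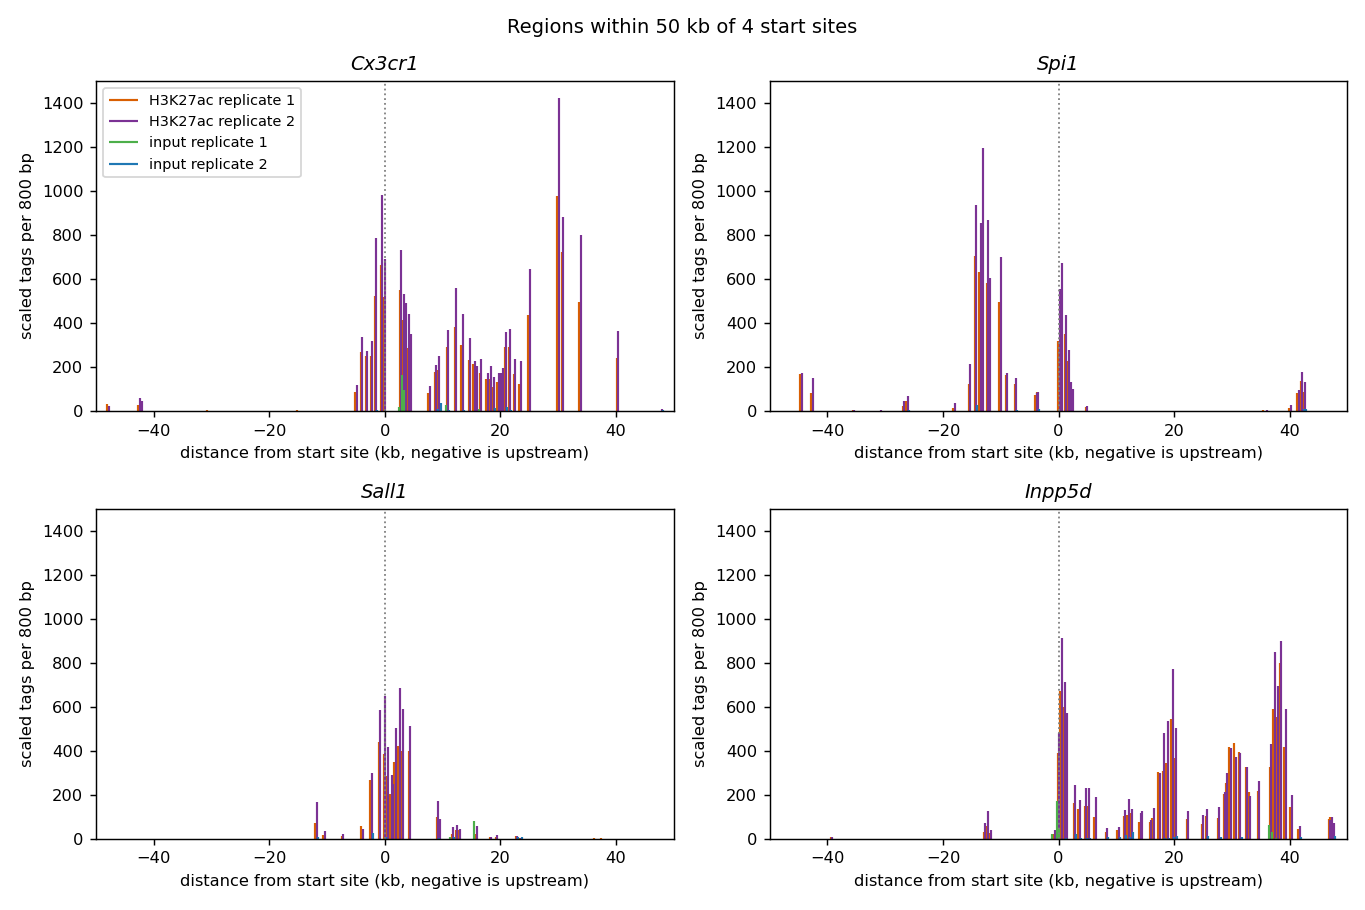
Scaled tags per 800 bp of every listed region within 50 kb of 4 start sites, as a vertical line per library at the region's distance from the start (kb, negative is upstream). At Spi1 the tallest lines lie 13.1 kb upstream, at Cx3cr1 30.0 kb downstream, and at Sall1 within a few kilobases of the start.

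When acetylated regions within 10000 bp of each other were joined, 19125 domains resulted, of which 8219 were a single region and 836 held 10 or more. Their signal was summed over the covered bases. The top 100 domains held 12.8% of the domain signal, and 17 of the top 20 were the same when ranked by either H3K27ac library. The extent of a domain, and so its sum and rank, depended on the distance joined and on which regions were called. Joining within 5000 bp gave 24354 domains, and 14 of the 20 largest domains overlapped the 20 largest there. The sums of 5 of the 20 then fell by over 1.5 times, those of Zfhx3, Fli1, Psap, Mef2a and Crybb1, down to 36.4% of the value given here. The replicate block gave 11763 domains and leaving out input replicate 1 gave 12732, with overlaps of 15 and 16 of 20. The block lowered 5 sums by over 1.5 times, those of Inpp5d, Il10ra, Zfhx3, C1q and Psap, and leaving out that input lowered that of Zfhx3. With non-overlapping regions the overlap was 15 of 20 and 6 sums were lower by over 1.5 times, among them those of Iscu, Ccr1, C1q, Fli1 and Psap. The overlap was lowest, 12 of 20, without either H3K27ac library, where the inputs alone set the spread. There 9 sums were lower by over 1.5 times, down to 26.8%, among them those of E230029C05Rik, Inpp5d, C1q and Mef2a.

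The largest domain spanned 56.8 kb over E230029C05Rik, a non-coding transcript on chromosome 7, with 36 regions and 8554 and 10853 scaled tags, against 6.10 and 33.7 in the inputs. None of its called regions lies within 1000 bp of a start site, but the strongest is centred 1117 bp from that of E230029C05Rik. The nearest protein-coding RefSeq neighbours are Eed, a Polycomb subunit 34.3 kb away, and Picalm, an endocytic adaptor 58.1 kb away. The next domain held Cx3cr1 in 29 regions over 46.1 kb, with 8121 and 11272 scaled tags. It was followed by a domain of 72.0 kb at 4933433H22Rik with 7061 and 8869. The nearest protein-coding RefSeq gene there was Zfp36l2, an RNA-binding protein 55.1 kb away. Inpp5d came next with 30 regions over 47.0 kb and 7098 and 8598.

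Ctsd, the protease cathepsin D, shared a domain of 75.5 kb with Ifitm10 (6405 and 8845). Psap lay in a domain of 72.7 kb (4779 and 6244). Domains with receptor genes included those of Cx3cr1 and Vsir, and those of Itgb5, an integrin subunit (6271 and 8061), and Il10ra (5189 and 6782). The domain of Ccr1 (4899.8 and 6757) lies 7.99 kb from the gene. Tmem119 lay in the domain of Iscu (5089 and 6624). The transcription factor genes Zfp710, Zfhx3 and Fli1 each overlapped a domain, with 5663 and 8077 at Zfp710. The domain assigned to Mef2a (4806 and 6169) overlaps no protein-coding RefSeq gene and lies 44.6 kb from Mef2a and 49.1 kb from Lrrc28. The C1q cluster was the shortest of the 20, 16.4 kb with 17 regions, and had the highest level per covered 800 bp, 406 scaled tags. It was also the domain in which the libraries lay closest, with 5554 and 5832.

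**Figure D4:**
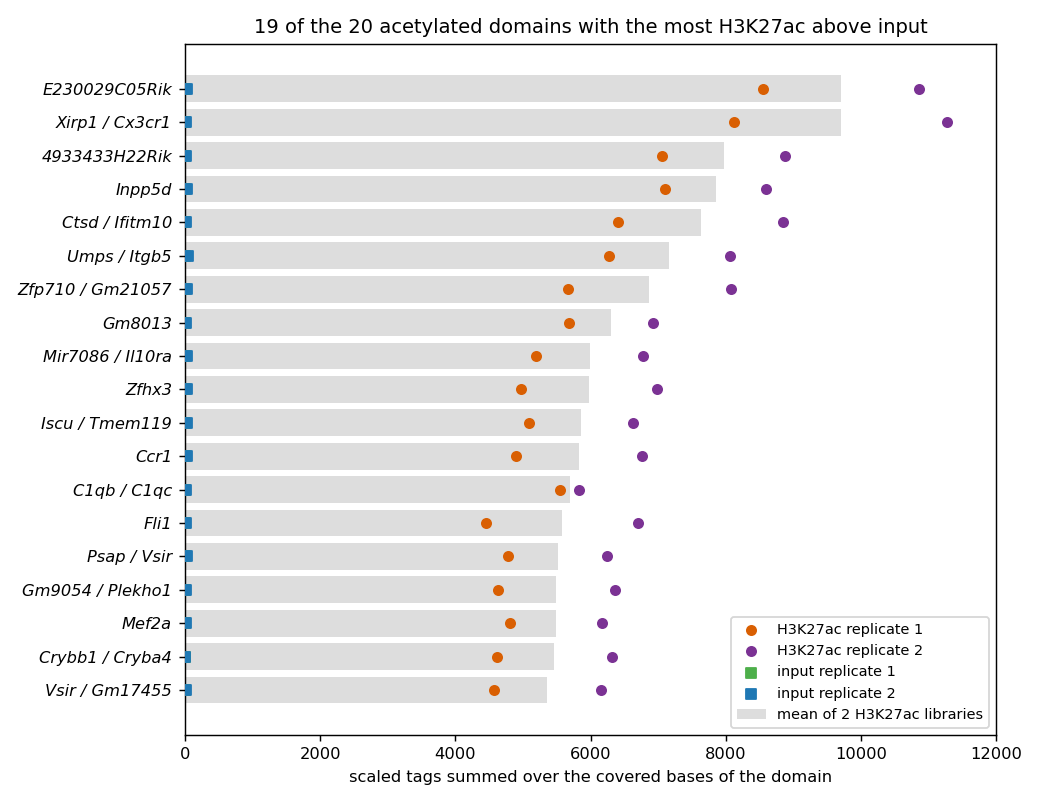
Scaled tags summed over the covered bases of 19 of the 20 domains with the most H3K27ac above input, labelled by the genes of their regions. Bars are the mean of the 2 H3K27ac libraries and points the 4 libraries, and the inputs are at 45.0 or lower in all 19.

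Gene groups were compared at the region nearest to each start site within 1000 bp. Such a region existed for 13955 genes, of which 7903 (56.6%) were acetylated, with a median of 22.9 scaled tags and a 90th percentile of 124. A gene without a listed region there has no value, and its chromatin was not analysed here. The groups were listed with earlier results of these data known, so their counts describe and do not test.

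Microglial markers had the highest median promoter level of all lists, so the labelled cell type bore its markers. Of 15 markers 14 had a promoter region, with a median of 400.1 scaled tags and a range of 117 to 606. All 14 had both H3K27ac values above both inputs and 13 were above the 90th percentile of all genes. Cx3cr1 held 520.0 and 691, P2ry12 427 and 528, Sall1 386 and 651, Siglech, a sialic acid receptor, 300.5 and 469.8, and P2ry13, a purine receptor, 322 and 459. The lowest was Tmem119 with 104 and 131. Acetylation was called at 10 of the 14. The 4 without a call were Csf1r (353 and 525, inputs 0 and 15.0), Gpr34 (382 and 329, inputs 31.9 and 0), Trem2 (319.5 and 547, inputs 79.7 and 2.14) and Selplg (438 and 604, inputs 0 and 16.0), each with an input well above the floor. TMM scaling left 6 called.

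Most promoters of markers of other brain cells were at or near the floor. Of 6 neuronal promoters none was called, the median was 0.473 scaled tags and 4 were under the floor in both libraries: Slc17a7, the vesicular glutamate transporter, was at 0 in all 4 libraries. Of 8 astrocyte promoters 1 was called, Atp1b2 with only 1.94 and 1.09, and none with edgeR or the replicate block. The median was 1.77, and Slc1a3, a glutamate transporter, was the highest with 30.3 and 42.9. Slc1a3 was an exception over its whole locus, with 22 of 36 assigned regions called and a highest region of 445. Of 8 oligodendrocyte lineage promoters 2 were called: Cnp, a myelin enzyme, with 139 and 145, and Mbp, myelin basic protein, with 18.1 and 5.70 (1 with edgeR, the replicate block or without input replicate 2). Mog held 44.5 and 49.4 with inputs of 55.2 and 0, while Olig1, Olig2, Pdgfra and Myrf were at 5.16 or lower. Summed over the 8 promoters of the lineage, the libraries held 214 and 200.2, most of it at Cnp, and the part of such nuclei in any result was not tested. Farther than 1000 bp from its start site, Mbp had 14 of 23 assigned regions that do not overlap each other called, up to 227. Over all regions assigned to each list, 21.4% were called for neurons, 39.3% for astrocytes and 37.8% for the oligodendrocyte lineage, beside 43.6% of all regions and 70.7% for the microglial list. In a sorted bulk sample, fewer cells of a type and less signal per cell cannot be told apart.

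Among the lists of other macrophages, blood cells and vascular cells, border macrophages had the most promoters called, and these cells also carry PU.1. Of 12 such markers 8 had a promoter region and 7 were called, with a median of 27.3 scaled tags and sums of 487 and 698 against 4405 and 6122 for the microglial list. Stab1, a scavenger receptor, held 205 and 319, Siglec1, a sialic acid receptor, 164 and 176, and Mrc1, the mannose receptor, 32.6 and 87.1. Pf4, F13a1, Ms4a7 and Cbr2 were between 15.2 and 30.7, and Cd163, Lyve1 and Folr2 had no listed promoter region. Of the monocyte and neutrophil markers only S100a8 (0 and 5.43) and Csf3r (369.9 and 586, with an input of 262) had one and neither was called, although 1 was called without input replicate 1. Of the lymphocyte markers none was called, and Cd79b held 24.5 and 11.9. Of 4 endothelial and mural promoters 3 were called, Pecam1 (35.5 and 46.4), Kdr (15.8 and 38.5) and Flt1 (5.81 and 11.4), and 1 without either input.

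**Figure D5:**
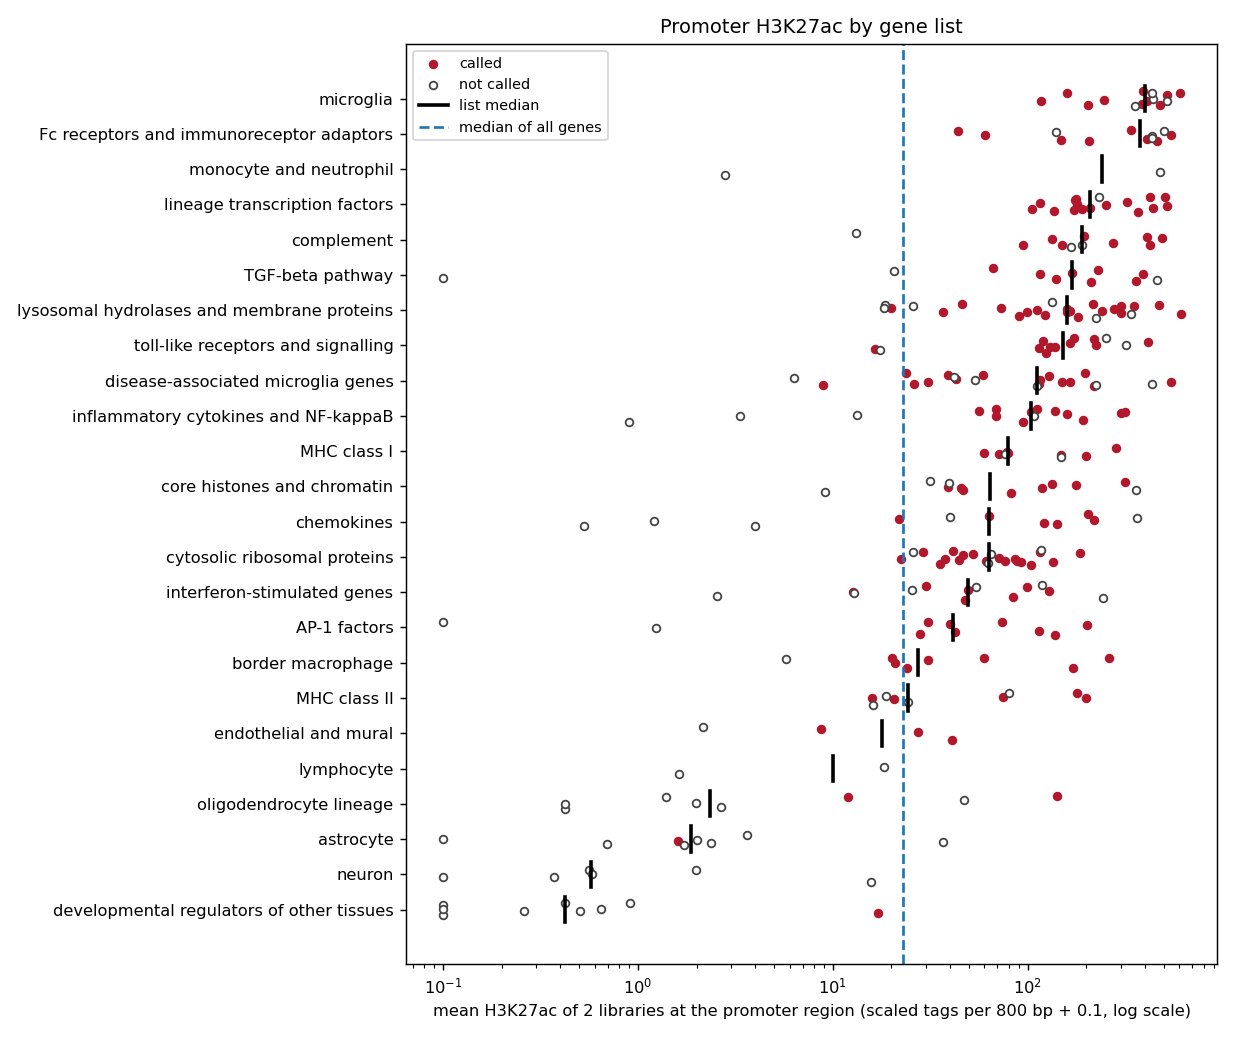
Mean H3K27ac of the 2 libraries at the promoter region of each listed gene (log axis, 0.1 added), filled where acetylation was called and open where it was not, with the median of each list as a black bar and of all genes as a dashed line. Medians run from 400.1 scaled tags for microglial markers to 0.325 for developmental regulators of other tissues, and open points at high levels are genes with tags in an input.

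Transcription factors of the lineage were acetylated at nearly all promoters. Of 17 genes 16 were called and all 17 were above the median of all genes, with a list median of 208 scaled tags. Sall1 was the highest, followed by Mef2a (441 and 577) and Spi1 (319 and 556, both inputs at 0, at least 43.4-fold over the input floor in pool 1). Maf (239 and 404), Mef2c (286 and 446) and Etv6 (231 and 273) were high as well, and Cebpb, a C/EBP factor, was the lowest with 107 and 103. Ikzf1, the lymphoid and myeloid factor Ikaros, was the exception with 187 and 277 beside inputs of 95.6 and 3.21.

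AP-1 factors, which respond to stimulation, spread widely. Of 10 promoters 8 were called and the median was 41.2 scaled tags. Junb held 138 and 265, Jun 98.8 and 178, and Fosl2 94.2 and 134. Fos held 36.2 and 25.5, Fosl1 0.65 and 1.63, and Fosb was at 0 in both H3K27ac libraries.

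Of 12 Fc receptors and immunoreceptor adaptors, which carry phagocytic signals, 8 were called and the median was 375 scaled tags. Tyrobp, the adaptor DAP12, held 416 and 666 with both inputs at 0. Fcgr3, a receptor for IgG, held 435 and 491, and Fcer1g, the common gamma chain, 335 and 346. Inpp5d at its start site held 391 and 480.4 and was not called, with inputs of 170.4 and 0, although its region 950.0 bp downstream was called. Fcgr1 (415 and 585; called without the variance trend) and Fcgr2b (127 and 152) also had no call beside an input of 9.62. Fcgrt, the neonatal Fc receptor, and Fcgr4 were lowest, at 42.3 and 45.8 and at 66.8 and 53.4.

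Of 11 complement genes 8 were called, with a median of 189.7 scaled tags. The nearest region to each start held 485 and 498 at C1qb, 398 and 451 at C1qc and 368 and 452 at C1qa. Itgam, a subunit of complement receptor 3, held 218 and 331. C3, the central complement component, was low with 17.4 and 8.68 and was not called, and C4b had no listed promoter region. Itgb2 (144 and 192) and C3ar1 (184 and 196) had inputs of 11.8 and 53.95 and no call.

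Along the TGF-beta pathway 8 of 11 promoters were called, among them the ligand, a receptor and the inhibitors, with a median of 169 scaled tags. The ligand Tgfb1 held 147 and 191, and Nrros, which helps to activate it on microglia, 154 and 308. The receptor gene Tgfbr1 held 201 and 221, while Tgfbr2 held 385 and 539.8 without a call beside an input of 11.8. Smad3, a signal transducer, held 82.95 and 147, and the inhibitors Smad7 (357 and 424) and Skil (268 and 455) were among the highest. Ltbp1, which stores the ligand in matrix, was at 0 in all 4 libraries.

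Of 14 toll-like receptor and signalling promoters 11 were called, with a median of 151 scaled tags. Tlr9, for DNA, held 367 and 462, Tlr4, for endotoxin, 175 and 272, and its co-receptor Cd14 193 and 247. Tlr8 was the lowest called, with 22.3 and 10.6. Of 15 cytokine and NF-kappaB promoters 11 were called, with a median of 104. Il1a held 247 and 384 and Nfkbia, the inhibitor of NF-kappaB, 335 and 266, whereas Il1b held 39.1 and 73.5 and Tnf 57.8 and 80.3. Nos2 (1.61 and 0) and Ptgs2 (6.46 and 0), both inducible enzymes, were not called.

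Of 11 chemokine promoters 6 were called, a share of 54.5% beside 56.6% of all genes, with a median of 63.6 scaled tags. Ccl6 (242 and 198), Cxcl16 (203 and 203) and Ccl9 (147 and 135) were the highest with a call. Ccl12 held 346 and 384 beside an input of 21.4 and had none. Ccl3 held 69.4 and 174 and Ccl4 47.4 and 79.8. Cxcl1, Cxcl2 and Cxcl10, which attract neutrophils and T cells, held 6.46 or less in each library.

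Of 13 interferon-stimulated promoters 7 were called, a share near that of all genes, with a median of 49.5 scaled tags. Mx2 held 188 and 298 without a call, beside an input of 8.55. Ifit3 held 103 and 65.4. Ifit2 (1.94 and 2.98) was near the floor. Unlike most of the strongest regions, replicate 1 was the higher library at Ifit3, Usp18 (63.9 and 35.0) and Oasl2 (39.7 and 20.6).

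Of 9 MHC class I promoters 7 were called, with a median of 79.5 scaled tags, and B2m, the shared light chain, held 246 and 319. Of 9 MHC class II promoters 5 were called, with a median of 24.3, near that of all genes, and 3 with the replicate block. The classical class II genes were low: H2-Aa held 27.4 and 4.61, H2-Ab1 28.7 and 8.68, and H2-Eb1 30.98 and 17.6, none of them called. Replicate 1 was the higher library in all 3 and at Cd74, the invariant chain (17.8 and 13.8). H2-Oa (148 and 211) and H2-Ob (170.4 and 230.0), which encode the peptide-loading regulator DO, were the highest, and the class II activator Ciita held 15.8 and 25.2.

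Of 26 lysosomal promoters 20 were called, the median was 159 scaled tags and 23 were above the median of all genes. Laptm5 was the highest, followed by Ctsz, a cathepsin, with 379 and 559.6. Psap held 291 and 408, Grn, which encodes progranulin, 294 and 311, and Ctsh, a cathepsin, 249 and 351. Ctss, the cathepsin of antigen presentation, held 310.2 and 369 without a call beside an input of 12.3. Gla (11.3 and 25.2), Gaa (12.6 and 26.9) and Neu1 (22.6 and 28.8), hydrolases found in most cells, were among the lowest.

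Genes of the disease-associated microglial state covered a wide range of levels. Of 21 promoters 15 were called, with a median of 112 scaled tags. Tyrobp and Trem2 were the highest. Apoe, the lipid carrier, held 142 and 113, and Itgax, an integrin subunit, 135 and 165. Some genes known for induction in disease had low promoter regions: Spp1, osteopontin, held 8.71 and 3.80, Gpnmb 9.04 and 8.68, and Lgals3, galectin-3, 14.9 and 32.3. Among assigned regions over 1000 bp from the start site that do not overlap each other, levels were higher at Lgals3, where 6 of 6 were called, up to 301, and at Spp1, where 2 of 5 were called, up to 116. Gpnmb had 0 of 2 called, at 5.30 or lower. Cst7 (31.3 and 51.8) and Clec7a (58.1 and 59.1) lay between.

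General cellular genes lay below the microglial markers (a median of 400.1) and the Fc receptors (375), but not below every list of immune genes: the medians were 63.6 for chemokines, 49.5 for interferon-stimulated genes, 41.2 for AP-1 factors and 24.3 for MHC class II. Of 22 cytosolic ribosomal promoters 18 were called, with a median of 63.5 scaled tags and a range of 22.2 to 186, and 21 were above the median of all genes. Rpl19 was the highest with 169 and 202. Of 12 histone and chromatin promoters 8 were called, with a median of 64.3. Brd2, a reader of acetylated histones, held 321 and 401 without a call beside an input of 13.9. Ep300, which encodes the acetyltransferase p300, held 261 and 372, and Crebbp, which encodes CBP, 27.8 and 65.1. Of 9 developmental regulators of other tissues 7 were under the floor in both libraries. Hoxb4 alone was called, with 16.5 and 17.6, and Pax3, Gata6 and Pdx1 were at 0 in both H3K27ac libraries.

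Over all lists, 172 of 263 genes with a promoter region were called. All 74 with a mean over 100 and both inputs at 0 were called, and in the 25 over 100 without a call the higher input was between 7.49 and 262, although both H3K27ac values exceeded both inputs in all 25. With the replicate block 150.0 list promoters were called, and among those named here P2ry12, Sall1, Fcgr3, C1qa, C1qb, Laptm5, H2-Ob, Cd74, Jun, Ccl9, Tlr8, Flt1, Gpnmb, Mbp and Atp1b2 lost the call.

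The sequence of the strongest promoters differed from that of promoters at large. Of the promoter regions, 10264 matched a RefSeq promoter of 300 bases. The ratio of observed to expected CpG had a median of 0.762 over all of them and 0.340 over the 103 strongest (a mean of 333 scaled tags or more), and the GC content was 61.0% and 56.0%. From the lowest to the highest of 5 equal groups by level, the CpG ratio was 0.630, 0.741, 0.798, 0.826 and 0.791, so the ratio rose over the lower 4 groups and was lower again in the highest. The PU.1 letters GAGGAAGT, on either strand, were in 3.29% of all promoters, in 1.66% of the lowest group, 5.55% of the highest and 11.7% of the 103 strongest (12 promoters). They were in the promoters of C1qc, Inpp5d and Ctss, but in 0 of 9 microglial marker promoters and 0 of 12 of the lineage transcription factors with a sequence, and also in that of the ribosomal gene Rpl13a (57.1 and 47.2). Among 1129 promoters with a GC content under 50% they were in 6.11%. The letters CCGGAAGT, which other ETS factors read in CpG-rich promoters, were in 8.08% of all promoters and in 1 of the 103. The CCAAT letters CCAATCA were in 10.6% and 1.94%. The MEF2 letters, found at Cx3cr1, were in 2.82% and 3.88%, and the C/EBP letters TTGCNNAA, found at P2ry12, in 7.92% and 13.6%. The PU.1 and CCGGAAGT letters cannot fall on the same bases, and a match describes letters and not binding.

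Among the regions called lower in H3K27ac than in input were some with no H3K27ac tag. Among the 10 with the smallest p were a region in intron 2 of 22 of Cux2, a neuronal homeobox gene, with 0 in both H3K27ac libraries and 39.2 and 29.4 in the inputs (limma adjusted p = 0.00242), and a region in intron 2 of 6 of Opn5, an opsin, with 0 and 0 beside 22.1 and 25.7. A region 14.5 kb upstream of Tcf7, a T cell factor, held 1.29 and 1.09 beside 44.1 and 31.01. The input itself was very uneven. The region highest in input, at the promoter of Crebzf (chr7:90441669-90442469), held 2988 and 1549.9 scaled tags in the inputs against 96.5 and 92.8 in H3K27ac. The next, 35.5 kb upstream of Pak3, held 782 and 564 against 291 and 186. Both lay below both inputs yet are not among the 226 regions called lower, being among the 215 where the trended spread failed. Without the trend Crebzf was called lower (limma adjusted p = 0.00887) and Pak3 was not (0.0662). In 5 of the other 8 regions highest in input, input replicate 2 had no tag, as at Uba7, with 611 and 0.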

How the data were processed

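Chromatin immunoprecipitation sequencing of H3K27ac and of input was measured in sorted WT nuclei. The authors deposited a table of signal per 800 bp region, scaled to 10000000 tags per library, per the file headers, which also give the library totals and name the region list as merged ATAC-seq peaks. Bowtie2, HOMER, DESeq2 and the build mm10 are named in the submitters' processing notes, without roles or versions. Duplicate handling is not given in the sources used here.

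The main test was limma 3.58.1 (R 4.3.3) on log2(signal + 1) with a trended variance, H3K27ac against input. It covered all regions with no filter, with Benjamini-Hochberg adjustment at 0.05. The trend was unreliable above a log2 average of 6 and cost calls from 5 to 6, but was kept as designed. Whole tag ends were recovered for 100% of values (tolerance 0.05 ends, 2 ends per tag). As alternatives, edgeR 4.0.16 and DESeq2 1.42.0 were run on these counts of ends, which are 2 per tag. Other alternatives were a pseudocount of 5, a filter, TMM scaling, a replicate block, each library left out, non-overlapping regions, and, chosen after seeing the data, regions without an input over 20, edgeR for lists, classes and domains, and no variance trend. Same-numbered H3K27ac and input libraries come from the same pool, so the numbers pair the libraries; the correlation of their deviations from the group means was -0.0034. The procedure was tested on simulated data. Where the inputs were simulated with clumped tags, limma also called regions of equal mean.

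Named regions were, among called ones with both H3K27ac values above both inputs, the 25 highest within and the 25 highest beyond 1000 bp of a start site, 1 per gene, then the 20 largest domains, the 10 regions highest in input and the 10 lower than input with the smallest p. For each gene list the rule names the 3 highest members and those without a call, and any other member named in the text was picked with its values in view. The members and the lists were chosen with earlier results of these data known. Unplaced sequences were left out of the named regions, and the GrnKO libraries were not used here. Sequences are RefSeq promoters of GRCm38.p6, the assembly that mm10 names, and 10264 promoters matched. Of 95994 regions matched by symbol, 91.0% had an implied start within 10 bp of the RefSeq start. Python 3.11.15, SciPy 1.17.1 and pandas 2.3.3 were used. Some genes of the lists and 1 of the 20 domains are not reported here.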

Additional observations from a re-analysis of the deposited data

How the results depend on the processing

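The count of acetylated regions (56389) stayed within 1.5 times under every alternative except the replicate block, which used the pairing of H3K27ac and input by pool and gave 33570; it was 42910 to 62357 with 1 library left out. With the replicate block 109 regions were lower than input and 11763 domains resulted. The 226 regions lower than input were the least stable count, with 480.0 under TMM scaling, 1280.0 with DESeq2, 87 without regions holding an input over 20 and 30.0 to 2816 with 1 library left out. Domains (19125) numbered 12732 to 24067 and called list promoters (172) 144 to 196 with 1 library left out, and 104 list promoters remained in the non-overlapping regions, where fewer promoters were tested. The median ratio to input (7.09) was 2.44 with a pseudocount of 5 and 5.44 to 8.75 with 1 pool left out. The median log2 difference of the regions tested (2.60) was 1.19 with a pseudocount of 5, 2.19 with TMM scaling, 4.29 with DESeq2, 4.82 with the filter, which tested fewer regions, and 5.23 with edgeR. Ranges with 1 library left out include fits without an H3K27ac library, whose spread comes from the inputs alone. The variance trend, which failed above a log2 average of 6, changed the call of 3 of 263 list promoters when dropped: Fcgr1 gained it, Jun and H2-Ob lost it. No direction reversed. The cause was not tested for the other shifts. The inputs limit the depth: 3 tags are 7.36 and 3.21 scaled tags there.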
